A study of Mus musculus with 18 samples.

Results

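The binding sites of CTCF in unperturbed mouse embryonic stem cells (ES cells, pluripotent cells of the early embryo kept in culture) were taken from the wild-type (WT) peak list of a chromatin immunoprecipitation and sequencing (ChIP-seq) study. All 73125 rows of that list were used, and rows with the same interval but different summits (positions of highest signal) were joined into 71075 regions. The study's 3 lists summed to 192685 regions, where a site present in several lists is counted in each. The other lists, from cells without TET or without TET and DNMT enzymes, were not used here. The regions rest on 3 WT ChIP samples made with an antibody against CTCF and 3 WT input samples (sonicated chromatin without immunoprecipitation), pooled by the authors, so no region has replicate values and no test between samples was possible. Intervals in brackets are 95% intervals that cover counting error only. The labels do not say whether the samples came from separate cultures, and they name no sublines. The cells were grown with LIF and serum replacement on irradiated mouse embryonic fibroblasts, whose chromatin may be present in the lysates. A peak list holds no expression values, so the cell type could not be checked against its marker genes.

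CTCF is a DNA-binding protein with a row of zinc fingers that recognises a long, asymmetric motif. Where cohesin extrudes chromatin loops it stalls at CTCF, so CTCF sites mark many loop anchors and domain borders, and they insulate enhancers from promoters. In ES cells it is known for sites at imprinted loci, at the clustered protocadherin genes and at the borders of Hox domains.

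Several of the strongest promoter regions held the letters of the CTCF motif close to the summit. Strength is given as fold, the authors' ratio of the ChIP signal at the summit to its local background, and pileup is the number of ChIP fragments over the summit. The letters searched were CCA, any 2 bases, AG, any 2 bases, GGC, on both strands, in RefSeq promoter windows of GRCm38.p6 (250 bases before to 50 after a gene's start). The 8 promoters of highest fold with both the summit and these letters are shown as 100 bases each, all upstream of the start, 5′ to 3′ on the gene's strand and with the motif in capitals. In Adprhl2, Nsfl1c, Crocc and Bclaf3 it reads forward on the gene's strand, and in Vps18, Faf2, Mterf1b and Zfp638 the capitals show its reverse complement.
Adprhl2: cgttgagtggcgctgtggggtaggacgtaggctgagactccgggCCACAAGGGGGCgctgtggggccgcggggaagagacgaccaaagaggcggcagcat
Nsfl1c: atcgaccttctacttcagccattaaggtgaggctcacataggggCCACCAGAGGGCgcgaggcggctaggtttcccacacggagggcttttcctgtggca
Vps18: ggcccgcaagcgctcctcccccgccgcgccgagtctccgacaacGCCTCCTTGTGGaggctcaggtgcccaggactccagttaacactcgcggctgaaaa
Crocc: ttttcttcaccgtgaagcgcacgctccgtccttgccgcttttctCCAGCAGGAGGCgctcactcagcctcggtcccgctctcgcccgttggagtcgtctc
Bclaf3: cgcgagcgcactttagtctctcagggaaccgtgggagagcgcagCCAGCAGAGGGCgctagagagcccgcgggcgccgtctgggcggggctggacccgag
Faf2: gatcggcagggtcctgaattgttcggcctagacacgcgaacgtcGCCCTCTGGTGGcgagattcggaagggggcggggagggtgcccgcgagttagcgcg
Mterf1b: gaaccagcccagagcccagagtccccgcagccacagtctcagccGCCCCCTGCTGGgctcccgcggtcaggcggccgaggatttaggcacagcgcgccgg
Zfp638: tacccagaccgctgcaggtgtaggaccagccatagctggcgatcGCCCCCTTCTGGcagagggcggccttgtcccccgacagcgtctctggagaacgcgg

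Adprhl2 (chr4:126321704-126321803, minus strand), which encodes a hydrolase that removes ADP-ribose from proteins, had the highest fold of them at 92.2, from a pileup of 481 (439 to 526). Nsfl1c (chr2:151494078-151494177, plus strand), a cofactor of the p97 ATPase in membrane fusion, had a fold of 82.7 and a pileup of 322 (287.8 to 359). Both summits lay within 100 bases of the annotated gene boundary. Vps18 (chr2:119288619-119288718, plus strand), part of the tethering complexes that bring vesicles to lysosomes, had a fold of 65.3 and a pileup of 375. The promoter of Crocc (chr4:141060688-141060787, minus strand), the gene of the ciliary rootlet protein, followed with a fold of 58.2 and a pileup of 334. Bclaf3 (chrX:159532472-159532571, plus strand) held the strongest region of the X chromosome, with a fold of 55.4 from a pileup of 157 over a local background of 1.85 fragments. Faf2 (chr13:54621630-54621729, plus strand), which acts in protein degradation at the endoplasmic reticulum, reached a fold of 55.0. Mterf1b (chr5:4192204-4192303, plus strand), of the family of mitochondrial transcription terminators, reached 49.7, and Zfp638 (chr6:83914227-83914326, plus strand), a zinc finger gene, 48.0.

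The 3 strongest promoter regions without the full letters in the window are shown for contrast. Capitals mark a shorter form, CC, any 3 bases, AG, any 2 bases, GGC, which was present in 2 of them.
Slc36a1: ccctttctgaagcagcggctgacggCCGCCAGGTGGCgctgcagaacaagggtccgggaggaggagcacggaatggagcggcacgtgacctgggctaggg
Sh3glb1: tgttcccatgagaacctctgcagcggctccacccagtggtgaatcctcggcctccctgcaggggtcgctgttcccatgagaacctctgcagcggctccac
Pdrg1: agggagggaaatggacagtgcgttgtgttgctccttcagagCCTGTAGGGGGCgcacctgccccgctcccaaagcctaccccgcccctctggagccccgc

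Slc36a1 (chr11:55204228-55204327, plus strand), a proton-coupled amino acid transporter, had a fold of 65.9 and a pileup of 221. Pdrg1 (chr2:153015434-153015533, minus strand) had a fold of 63.5 and a pileup of 216. Sh3glb1 (chr3:144720486-144720585, minus strand), a membrane-curving protein of the endophilin family, had a fold of 65.6 and a pileup of 654 with neither form of the motif in the window. Its summit lay at base 36 of the 300-base window, and the region (chr3:144720367-144720830) ran past the window's upstream edge, where no letters were searched. In the window of Sh3glb1 a run of 52 bases recurred exactly, 68 bases further on. Only 203 of all 32851 windows (0.618%) held a repeat of at least 30 bases, a search made after the sequence was seen.

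Motif letters were found more often the stronger the region. Of all 32851 windows, 797 held the full letters, a background of 2.43%. Among the 1809 windows with a CTCF summit, 267 held them, 14.8% (13.2 to 16.5), against 530 of 31042 windows without a summit, 1.71% (1.57 to 1.86). Windows with a summit had a median GC content of 60% and 19 CpG dinucleotides, those without 52.3% and 7. The part of base composition in the difference was not tested. Counted over regions, 245 of 1637 with a summit in a window had the letters. Parts of a region outside the windows were not searched, so regions without the letters may hold them there. The share was 6.97% (5.12 to 9.43) in the weakest tertile of these regions, with folds of 2.22 to 7.38. It was 15.0% (12.3 to 18.3) in the middle tertile and 22.9% (19.6 to 26.6) in the strongest, with folds of 17.1 to 92.2. Regions with the letters had a median fold of 17.1 (quartiles 10.2 and 24.1), and those without 10.7 (5.41 and 19.3), so the groups overlapped widely. Promoter regions without the letters lay in windows with a median of 20 CpG dinucleotides and a GC content of 60.3%, against 13 and 56.3% for those with them. The shorter letters were present in 35.2% of windows with a summit, 7.06% of those without and 8.61% of all windows. The summit lay a median of 18.5 bp (quartiles 7.5 and 45.5) from the centre of the motif, and in 193 of 245 regions within 50 bp.

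Of the 12 regions of highest fold in the whole list, 7 had their summit inside a protein-coding gene, and those of Adprhl2, Nsfl1c and Exd1 lay within 1 kb of a start. The highest fold was 120, reached by regions inside Rnf212b (chr14:54835739-54836088) and inside Fyb2 (chr4:105004540-105005119). Rnf212b, a RING finger gene linked to meiotic recombination, had a pileup of 631 (583 to 682) over a background of 4.26. Fyb2, an adaptor of T cell signalling, had 532 (488 to 579) over 3.44. The median fold of all regions was 10.0. Next came a region 7.23 kb from Caln1 (chr5:130853195-130853812), a neuronal calcium sensor gene, with a fold of 96.5. After Adprhl2 followed a region 5.68 kb from Rgs14 (chr13:55390224-55390581), a regulator of G protein signalling, at 83.0. A region inside Kbtbd12 (chr6:88577719-88578437) stood at 81.8 and one inside Exd1 (chr2:119546839-119547389), a gene of the piRNA pathway, at 78.8. The gene Ctcfl, the germline paralogue of Ctcf, held a region with a fold of 78.5 and a pileup of 555 (510 to 603) at chr2:173097154-173097740. Snx29 (chr16:11423289-11424243), a sorting nexin gene, and Erc2 (chr14:27803846-27804500), a scaffold of the presynaptic active zone, completed the 12 strongest with folds of 76.6 and 74.6. Of these 12 regions only Snx29's had 2 summits.

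Some regions of high rank lay on a very high local background. The region 61.6 kb from Gm15319 (chr8:20424602-20425118) was among the 12 strongest by fold, at 81.5, but its background was 53.7 fragments and its pileup 4456. By −log10 q, which grows with depth, the first region was chr2:98666610-98667286, with no protein-coding gene within 100 kb. It had 27795 ChIP fragments over a background of 7634, a fold of only 3.64. The others among the first 6 by −log10 q were the region of Gm15319, chr8:19784346-19785096 (31.0 kb from 4930467E23Rik) at a fold of 37.7, one inside Ctif (chr18:75599683-75600271), a translation initiation factor gene, at 51.1, chr8:20590529-20591065 (23.6 kb from Gm21119) at 13.4, and chr8:20121897-20122480 at 41.8. So 4 of those 6 lay within a single stretch of chromosome 8. In all, 53 regions had a background above 100, with a median fold of 2.15. Of these, 22 lay on chromosome 9 and 23 on the scaffold Un_JH584304. This class was defined after its values were seen. The 100 regions of highest fold included none of them, and shared 39 regions with the 100 of highest −log10 q.

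**Figure D1:**
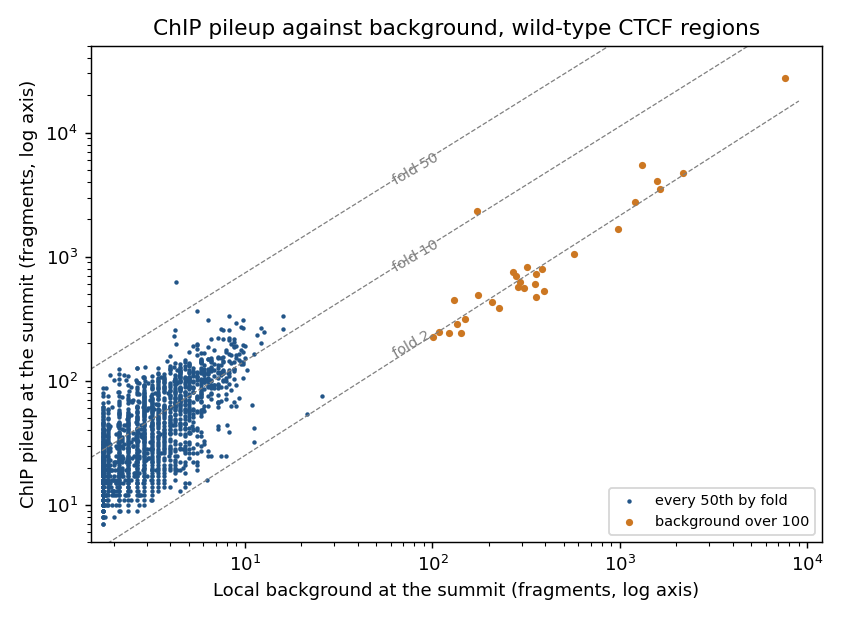
Each point is a WT CTCF region, with the local background at its summit on the x axis and the ChIP pileup on the y axis, both in fragments on log axes. Blue points are every 50th region by fold, orange points the 30 regions on chromosomes with a background above 100, and dashed lines mark folds of 2, 10 and 50. Most orange points lie near the line of fold 2, far to the right of the blue ones.

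Strength varied over a broad range with a long, thin upper tail. Fold ran from 1.34 to 120 with quartiles of 6.17 and 15.4, and −log10 q had a median of 28.3 and a minimum of 1.30. The pileup had a median of 40 fragments (quartiles 21 and 76) and the background a median of 3.10. A fold of at least 20 was reached by 8224 regions (11.6%), one of at least 30 by 1275, one of at least 40 by 262 and one of at least 60 by 35. The weakest regions rest on few fragments, down to a pileup of 7. For 15.1% of regions the background was within 1% of the lowest in the list, 1.76, where fold depends almost only on the pileup.

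Genes that encode CTCF and its partners in loop formation had CTCF regions themselves. A gene was counted as having a region where a summit lay in it or within 10 kb, which held for 17190 of 21887 protein-coding genes, a background of 78.5%, with a median of 2 regions a gene and a median best fold of 16.7. Of the 19 genes of the CTCF and cohesin list all had one, 100% (83.2 to 100), with a median of 3. These genes were longer, at a median of 45.4 kb against 17.2 kb over all genes. Per 100 kb of gene and flanks they had 3.79 regions, against 4.17, and their median best fold was 13.6, against 16.7. Around Ctcf itself there were 4. Those inside the gene had folds of 3.07, 8.38 and 3.37, and the one beyond its boundary (chr8:105685645-105686122) had 20.0 with a pileup of 241. Ctcfl had 6, with folds of 19.4, 78.5, 14.6, 13.1, 35.5 and 7.62. Pds5b, a regulator of cohesin release, had a best fold of 25.4. Nipbl, the cohesin loader, had 9 regions and a best fold of 25.04, and Stag1, a cohesin subunit, had 10 and 23.9.

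Of 21 pluripotency factors 20 had a region, 95.2% (77.3 to 99.2), and of 18 feeder fibroblast markers 16, 88.9% (67.2 to 96.9). Both intervals include the 78.5% of all protein-coding genes. The median best fold was 14.5 for the pluripotency factors and 17.8 for the fibroblast markers, against 16.7 over all genes. The genes named next are those with the highest best fold in each list. Nanog, a core factor of the pluripotent state, had 9, the strongest with a fold of 34.6 and a pileup of 171 (chr6:122719903-122720742). Sox2 had 3 and a best fold of 31.4. Nr5a2 reached 30.2 and Prdm14, which represses differentiation genes, 29.5. The fibroblast markers had best folds of 41.0 at Col1a1, a collagen gene, 31.2 at Pdgfrb, 28.1 at Postn and 27.2 at Col6a1. Both lists had a median of 3 regions per gene, against 2 over all genes, but they differed in gene length. Median length was 7.1 kb for the pluripotency factors and 33.9 kb for the fibroblast markers, against 17.2 kb over all genes. Per 100 kb of gene and flanks they had 8.08 and 4.78 regions, against 4.17.

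At imprinted genes, genes at known domain borders and Hox genes, where CTCF is known to act, the share with a region was 92% (75.03 to 97.8), 94.4% (74.2 to 99.01) and 89.7% (76.4 to 95.9). These intervals also include the 78.5% of all genes, and with the gene body alone the Hox share was 20.5%, below the 54.5% of all genes. Hox genes are short, at a median of 3.7 kb against 17.2 kb over all genes. Of all genes up to 5 kb, 12.2% had a region in the body. Per 100 kb of gene and flanks the imprinted, border and Hox genes had 3.24, 4.20 and 7.59 regions, against 4.17 over all genes. H19, a non-coding RNA whose upstream control region is the classical CTCF insulator, had 2 regions, 2.58 kb and 3.74 kb away (chr7:142580068-142580955 and chr7:142581631-142582184). Their folds were 15.8 and 17.6, above the median of all regions and below the strongest decile. Of 25 protein-coding imprinted genes 23 had a region, the strongest at Grb10, a growth-restraining adaptor, with a fold of 38.4, then Rtl1 at 28.1, Phlda2 at 24.8 and Kcnq1 at 24.6. Of 18 domain border genes 17 had one. Wnt6, Lmbr1 (whose intron holds the limb enhancer of Shh), Epha4 and Lmnb1 led with best folds of 39.7, 34.4, 29.8 and 26.1. Of 39 Hox genes, the body-axis transcription factors, 35 had a region. Hoxc10 and Hoxc11 shared the strongest (chr15:102966285-102966761, fold 49.95, pileup 181), followed by Hoxb9 at 35.8 and Hoxa10 at 30.6.

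The clustered protocadherins, neuronal adhesion genes with a CTCF site at most of their alternative promoters, had the most regions per gene of the 10 lists. A region was found at 55 of 57 members, 96.5% (88.1 to 99.03), against 78.5% of all protein-coding genes. These members had a median of 7 regions per gene, against 2 over all genes. Their median length was 90.3 kb, against 17.2 kb over all genes, and per 100 kb of gene and flanks they had 9.06 regions, close to the 8.97 of ribosomal protein genes and the 8.08 of pluripotency factors, against 4.17 over all genes. Pcdhga1 had 30, the strongest with a fold of 27.1, while Pcdhb7 and Pcdhb8 shared a region with a fold of 25.4 and Pcdhga10 reached 24.8. The transcription units overlap, so members share regions and are not independent. The 3 genes with most regions in the body were overlapping records over the same cluster, Gm37013 with 85, Gm38667 with 82 and Gm38666 with 82.

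Ribosomal protein genes were covered at 97 of 99 members, 98.0%, and sensory receptor genes at few, against 78.5% of all protein-coding genes. Among the ribosomal genes Rpl22 had a best fold of 46.7, Rpl36 44.4, Rps27rt 43.2 and Rpl5 42.4. Of 1106 olfactory receptors only 215 had a region, 19.4% (17.2 to 21.9), and of 353 vomeronasal receptors 41, 11.6% (8.68 to 15.4). The median best fold was 10.1 for olfactory and 6.90 for vomeronasal receptors, against 17.2 for ribosomal protein genes and 16.7 over all genes. The highest folds near olfactory receptors were 33.5 at Olfr1393 and 32.6 at Olfr649 and at the neighbours Olfr94 and Olfr95. Near vomeronasal receptors they were 21.5 at Vmn2r29, 20.7 at Vmn1r1, 17.02 at Vmn1r4 and 15.5 at Vmn1r234. The receptor lists and the Hox and ribosomal lists consist of short genes, so the 10 kb flanks weigh heavily in them. Counting the gene body alone, ribosomal protein genes (29.3%) also fell below all genes (54.5%). Median length of the ribosomal genes was 3.6 kb, and 12.2% of all genes up to 5 kb had a region in the body.

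Long genes held more regions but fewer per unit of length than short ones. The next genes after the protocadherin records were Camta1 (47 regions in 802 kb), a calmodulin-binding transcription activator, Cdh13 (47 in 1185 kb), a cadherin, Fry (46 in 379 kb), Mtus2 (45 in 359 kb) and Pde4d (37 in 1302 kb), a cAMP phosphodiesterase. Fry and Mtus2 thus had about 12.1 and 12.5 regions per 100 kb, against 2.84 for Pde4d. Of genes over 200 kb, 98.4% had a region in the body with 2.08 per 100 kb. Genes up to 5 kb had one in 12.2% of cases with 6.02 per 100 kb. Among the densest genes of at least 20 kb with at least 5 regions were Bnip5 with 29.9 per 100 kb, Suds3, a subunit of the SIN3 corepressor, with 28.8 and Pdzd7, a hair-cell scaffold, with 28.4. Stat2, of interferon signalling, had 26.8, Tsc22d4 26.7 and the myosin heavy chain genes Myh7b and Myh3 26.0 and 24.98. At the other end, the longest genes with no region in the body were Fstl5 (636 kb), Skint5 (522 kb), Edil3 (502 kb) and Skint6 (482 kb), and of these only Fstl5 had a region within 10 kb.

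Relative to genes, summits gathered at starts, with a peak just upstream. Of 68967 regions on chromosomes with annotated starts, 3738 lay within 1 kb of a protein-coding start, 5.42% (5.25 to 5.59), against 1.43% of bases, a ratio of 3.80. Starts were known for 17492 of the 21887 genes. Within 1 kb of a gene's far end lay 1706, 2.47% (2.36 to 2.59), 1.93 times the share of bases, and 205 of the regions counted were near both a start and a far end. Inside protein-coding genes were 34868 of 70975 regions, 49.1% against 38.2% of bases, and over 100 kb from any such gene 6918, 9.75% against 29.4%. In the 250 bp before a start there were 254 summits per 1000 starts and kb (1347 summits at 21238 starts), and in the 250 bp after it 105. The level was 52.9 at 5 kb upstream and 45.0 at 5 kb downstream. At the far end no such peak was present: the last 250 bp of genes held 30.7 per 1000 ends and kb and the next 250 bp 54.3.

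**Figure D2:**
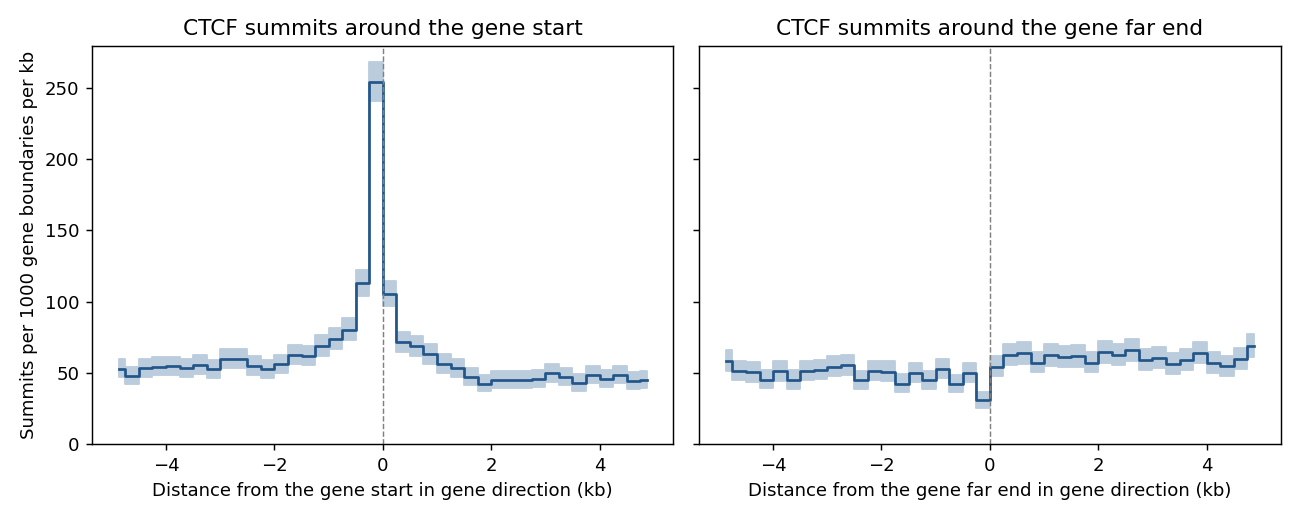
Density of WT CTCF summits in bins of 250 bp within 5 kb of protein-coding gene starts and far ends. The line gives summits per 1000 boundaries per kb and the band its 95% Poisson interval, with positive distances in the direction of transcription. The bin before the start reaches 254, over 4 times the level at the edges, and the bin before the far end dips to 30.7.

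Regions at gene starts were most frequent among the weakest and among the strongest regions. When all regions were divided into deciles by fold, 11.2% (10.5 to 12.0) of the weakest decile lay at a start. The share then fell to 3.83% in the fifth decile and rose again to 8.01% (7.39 to 8.67) in the strongest, with folds from 20.9. Ranked by −log10 q the 2 ends were nearly equal, with 8.90% in the weakest and 9.09% in the strongest decile. In narrower classes chosen after the values were seen, 164 of the 972 strongest regions with usable starts (16.9%, 14.6 to 19.4) and 35 of the 96 strongest (36.5%, 27.5 to 46.4) were at a start. Regions at starts had a median fold of 8.67 with quartiles of 4.89 and 15.9, a wider spread than inside genes (9.65, with 5.998 and 14.9). Their background, at a median of 3.96, was above the 3.10 of all regions, and its part in the weak class was not tested. Regions over 100 kb from protein-coding genes made up 11.4% of the weakest decile and 6.16% of the strongest. All such regions had a median fold of 8.71 and a median pileup of 30.

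**Figure D3:**
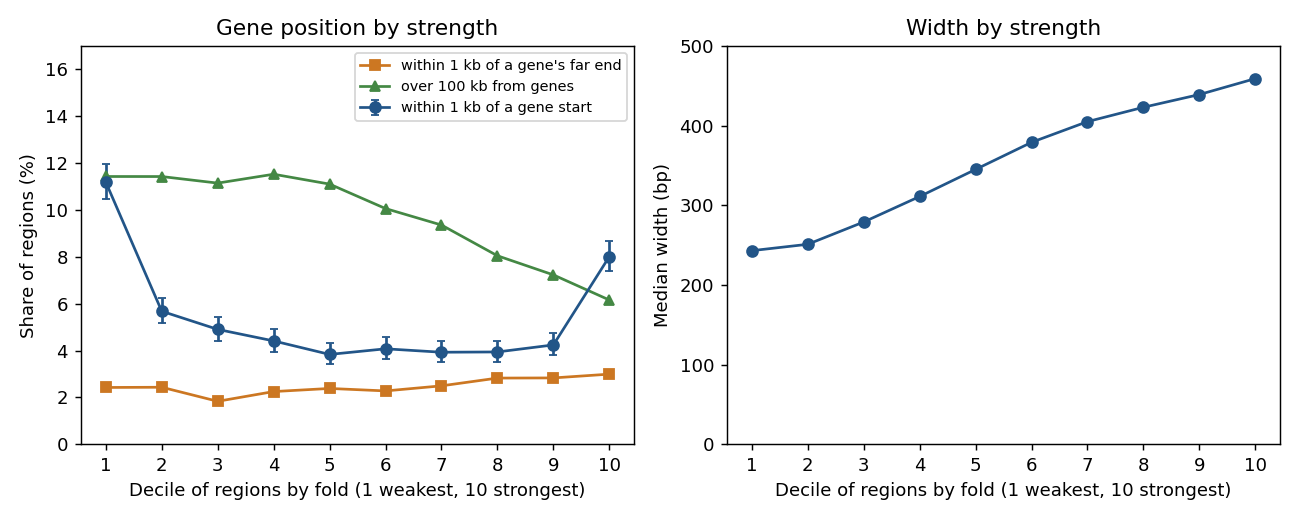
WT CTCF regions in deciles by fold, from weakest to strongest. The left panel shows the share (%) within 1 kb of a gene start with its 95% Wilson interval. It also shows the shares within 1 kb of a far end and over 100 kb from protein-coding genes. The right panel shows the median width in bp. The share at starts is high at both ends, 11.2% and 8.01%, while width climbs steadily from 243 to 459 bp.

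Stronger regions were wider, more often had several summits and lay slightly closer to a neighbour. Width had a median of 364 bp (quartiles 283 and 435, range 198 to 4434). From the weakest to the strongest decile it went from 243 to 459 bp, the share with 2 or more summits from 1.72% to 5.18%, and the median distance to the nearest other region from 7.77 to 5.95 kb. Across 70975 regions, Spearman's rho of fold was 0.71 with width and −0.07 with the distance to the nearest region. Width and fold come from the same fragments, and the regions are not independent replicates.

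Nearly all regions had a single summit. There were 69143 such regions (97.3%), 1827 with 2 summits, 95 with 3, 9 with 4 and 1 with 7, so that 1932 regions, 2.72% (2.60 to 2.84), had 2 or more. These had a median width of 780.5 bp and a median fold of 13.6, against 360 bp and 9.91 for regions with 1. In regions with 2 summits these lay a median of 398 bp apart (quartiles 317 and 495). The fold of the weaker was a median of 0.592 of the stronger, 6.01 against 13.6, and in 445 regions (24.4%) it was over 0.8 of it. The region with 7 summits, 4.74 kb from Trappc6b, a gene of vesicle transport, was also the widest. The next by number of summits were regions with 4 summits inside Zfp704 (1730 bp, fold 15.7), inside Bcl2l1, an inhibitor of apoptosis (1483 bp, fold 33.0), and inside Triml1 (1317 bp, fold 16.3), and chr14:19416886-19418151 and chr9:3000248-3001492, with no gene within 100 kb. The latter pair had backgrounds of 1308 and 1636 fragments and folds of 4.20 and 2.15. Over all 9 regions with 4 summits the median fold was 2.15 and the median background 115 fragments. Among the widest were also regions inside Acot8 (1562 bp), inside Nkx2-2, a neural tube transcription factor gene (1524 bp), 7.45 kb from H2-D1, a histocompatibility gene (1523 bp), and inside 2900026A02Rik (1515 bp), each with 3 summits.

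Autosomes with more genes per Mb mostly had more CTCF regions per Mb. The autosomes held 28.3 regions per Mb, from 21.3 (20.6 to 22.0) on chromosome 3 to 40.1 (39.0 to 41.2) on chromosome 11. Across the 19 autosomes density went with protein-coding genes per Mb (Pearson's r 0.82, Spearman's rho 0.86), given as a description, since chromosomes share the same pooled libraries. Chromosome 7 had the most genes per Mb, 13.97, but only 30.3 regions per Mb, or 2.17 regions per gene, and chromosome 12 had the most per gene, 4.42. The X had 11.4 per Mb (10.9 to 12.0), so that the autosomes' density was 2.47 times that of the X. Chromosome 12, with the same gene density of 5.66 per Mb, had 25.01 regions per Mb. The Y had 36 regions in all, 0.396 per Mb, the strongest inside Gm52481 with a fold of 28.0.

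Regions on the X were also weaker and lay on a lower background. Median fold was 8.71 on the X and 10.1 on the autosomes, median pileup 26 and 40, and 5.12% against 11.8% of regions had a fold of at least 20. The background was within 1% of the lowest in the list, 1.76, in 51.9% of X regions and 14.003% of autosomal ones. The strongest X region after Bclaf3 was one at Apoo, a gene of the mitochondrial inner membrane, with a fold of 52.3. Next was chrX:94865460-94865982, with no protein-coding gene within 100 kb, at 52.2. Autosomes differed too, as was seen from the values. Over regions with a background of up to 100, the mean background was 5.14 fragments on chromosome 8 and 4.29 on chromosome 1, against 3.32 to 3.85 on the 17 other autosomes and 2.36 on the X. Relative to the median of those 17 these were ratios of 1.46, 1.22 and 0.669. The regions of each chromosome were also split, in order along it, into 4 parts with about equal numbers of regions, so the parts differ in length. On chromosome 8 all 4 parts were raised (4.90 to 5.46), and on chromosome 1 the inner parts most (4.72 and 4.89, against 4.001 and 3.56 in the outer parts). Median pileup was 51 on chromosome 8 and 45 on chromosome 1, against 37 to 42, while median fold on chromosome 8, at 10.0, was that of all regions. The number of copies of each chromosome in these cells was not tested.

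**Figure D4:**
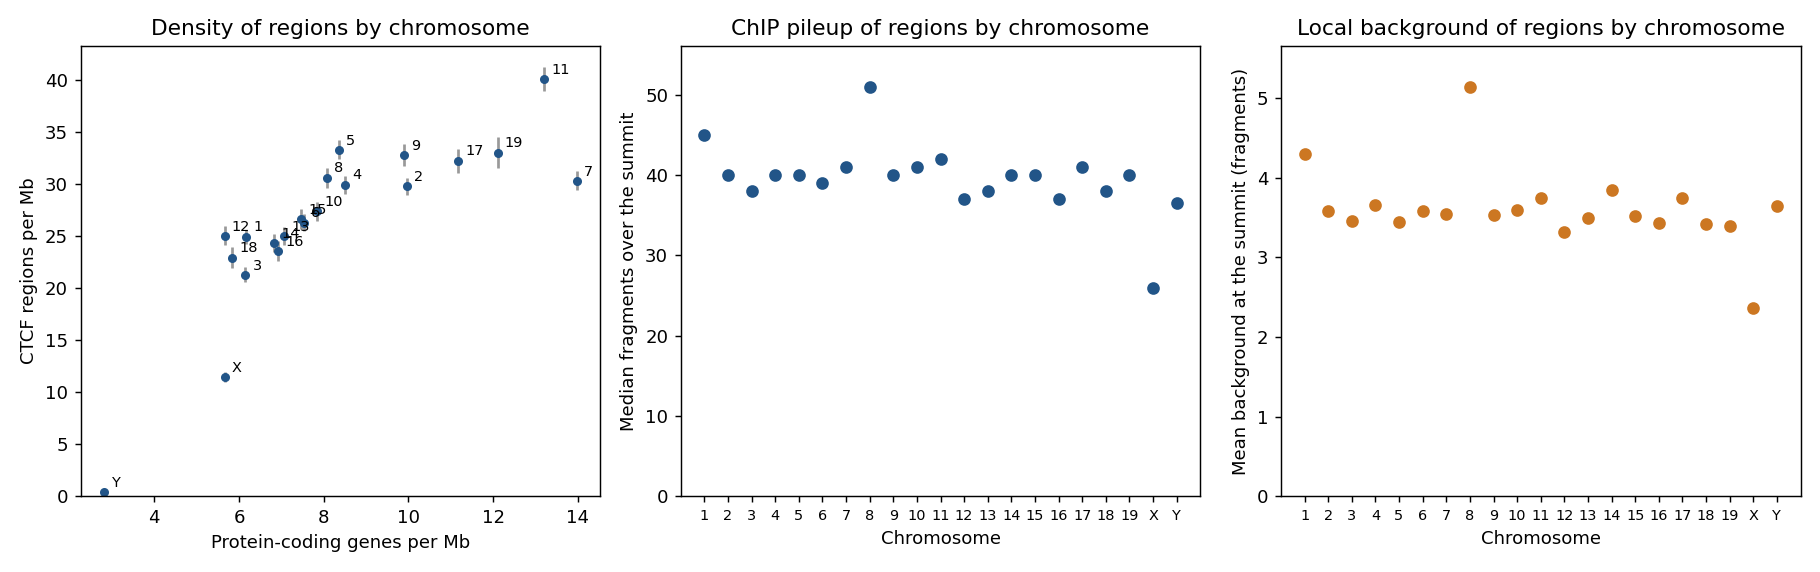
Left, WT CTCF regions per Mb against protein-coding genes per Mb for each chromosome, with 95% Poisson intervals; middle, median ChIP pileup; right, mean local background over regions with a background of up to 100, both in fragments. Chromosome 11 is the densest at 40.1 per Mb and the X lies below all autosomes, while chromosomes 8 and 1 stand above the others in pileup (51 and 45) and background (5.14 and 4.29).

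Spacing was uneven, with many close neighbours and a few very long gaps. The median distance between neighbouring summits of the 70954 pairs was 14.8 kb (quartiles 5.53 and 36.7), and the mean, 37.4 kb, was more than double that. Under 1 kb lay 2.83% of distances, under 10 kb 39.1% and under 50 kb 81.6%. Gaps over 100 kb were 7.99% of distances but took up 48.8% of the length. On the X the median was 29.2 kb, against 14.6 kb on autosomes, and 21.7% of its gaps were over 100 kb. Neighbours were hardly alike in strength, with a Spearman's rho of 0.05 between their folds. By distance, the median fold was 9.46 under 1 kb, 10.8 at 1 to 5 kb, 10.3 at 5 to 20 kb, 9.79 at 20 to 100 kb and 8.58 over 100 kb, so it was not highest among the closest neighbours.

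**Figure D5:**
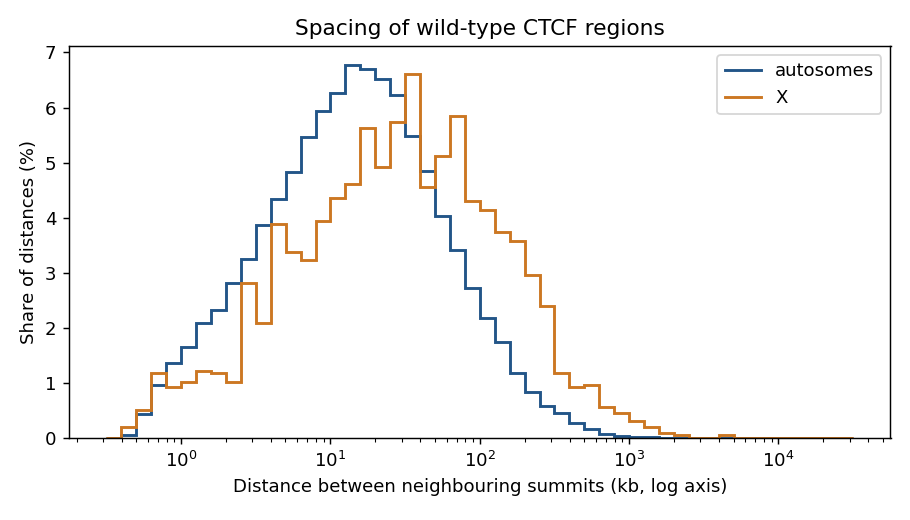
Distances between neighbouring WT CTCF summits in kb on a log axis, as a share (%) of all distances on the autosomes (blue) and on the X (orange). The X distribution is shifted to longer distances, with medians of 14.6 kb on autosomes and 29.2 kb on the X, and its tail reaches 4752 kb.

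The longest gaps included a stretch of Btbd35f genes on the X and one of vomeronasal receptor genes on chromosome 7. On the autosomes and X the longest was chrX:28802973-33554595, 4752 kb with 23 genes, of which 11 belong to the Btbd35f family, with Spin2e and Spin2f, and its right edge lay 20.8 kb from Btbd35f15. Next were chrX:25014287-27240084, 2226 kb with 10 genes including Slx, a gene of spermatids, and chr7:7299572-9306915, 2007 kb, whose 16 genes were all vomeronasal receptors of the Vmn2r family, between a summit inside Clcn4, a chloride-proton exchanger, and one 83.3 kb from Vmn2r37. A gap of 1982 kb, chrX:54292113-56274378, held 16 genes, among them Slxl1 and, nearest its left edge, Gm14596, and its right edge lay 2.71 kb from Gm35953. The gap chr1:147496584-149254330 held no protein-coding gene over 1758 kb, and chrX:115396582-117088785 held Cpxcr1, H2ab2 and H2ab1 in 1692 kb. On the Y, 11 of 35 gaps exceeded 1 Mb, the longest 29364 kb with 97 genes including Ssty2. How much of these gaps could be mapped was not tested.

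At the other extreme, the 5 fullest windows of 1 Mb held over 100 regions each. Among 2452 autosomal windows of 1 Mb the median was 23 regions (quartiles 11 and 41), 49 windows held none, and 574 windows (23.4%) held 50% of autosomal regions. The 294 windows without a protein-coding gene had a median of 5 and the 270 with at least 20 genes one of 59.5. The fullest was chr7:19000001-20000000 with 114 regions and 53 genes, its strongest region 0.411 kb from Ercc1, a DNA repair nuclease gene, with a fold of 37.2. It was followed by chr8:84000001-85000000 with 108 regions, led by one inside Klf1, the erythroid transcription factor gene, at 35.7. Chromosome 17 had a window with 106 regions (chr17:28000001-29000000), led by one 0.21 kb from Ppard, a nuclear receptor gene, at 44.6. It had another with 105 (chr17:35000001-36000000), in the histocompatibility complex, led by one inside Cdsn at 32.2. The fifth, chr4:134000001-135000000, also had 105, led by one 0.26 kb from Cep85, a centrosome gene, at 39.3.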

How the data were processed

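CTCF ChIP-seq of WT mouse ES cells was used, 3 ChIP and 3 input samples of the 18 in the series. Per the labels the authors pooled replicates before peak calling. The submitters' processing notes name the peak caller MACS2 2.1.2, the aligner Bowtie2 2.3.4 and the mm10 build among others; no source used here gives the commands. The deposited list gives for each summit a fold (a ratio), a −log10 p, a −log10 q and an integer score (not used), as the authors' peak caller wrote them. The lowest −log10 q, 1.30, is a q of 0.05.

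Rows with equal intervals were joined, keeping the strongest summit. Taking fold as pileup plus 1 over background plus 1, and −log10 p as a Poisson tail, returned a whole-number pileup (relative error under 1e-04) for 100% of rows, and the depth per sample is unknown. The solver and motif search were tested on simulated data. Genes came from RefSeq GRCm38.p6 (the assembly behind mm10; 21887 protein-coding), and starts and strands from 32851 promoter windows covering 17492 of these; starts on chromosome 18 are not analysed here, nor are exons and introns. Regions are named by the protein-coding gene holding the summit, else by the nearest boundary within 100 kb. Shares carry Wilson and counts exact Poisson intervals. Python 3.11.15, numpy 2.4.6, pandas 2.3.3, SciPy 1.17.1 and matplotlib 3.10.9 were used.

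Named by rule were the 12 regions of highest fold and 6 of highest −log10 q, the 6 with most summits and 6 widest, the 8 genes with most and the 8 with densest regions, the 4 longest genes without one, the 6 longest gaps, the 5 fullest windows, up to 4 genes per list, and 8 promoters with and 3 without the motif. Always named were Ctcf and H19. An item that the rule takes is not reported here. The regions, lists and rules were chosen with earlier results of these data known. Of the imprinted list 5 non-coding genes and of the border list 3 were left out of the counts, and Nespas was not matched. Alternatives tried were a −log10 q of at least 5, merging within 500 bp, every summit row, other windows, flanks, biotypes and motif, and ranking by −log10 q.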

Additional observations from a re-analysis of the deposited data

How the results depend on the processing

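Counting the gene body alone put 4 of 10 gene lists below all genes in place of 2, Hox genes (20.5%) and ribosomal protein genes (29.3%) being the added ones. Both added lists consist of short genes, and of all genes up to 5 kb 12.2% had a region in the body. No paired analysis was possible because the authors pooled the replicates before peak calling, and leaving out a replicate could not be run for the same reason. A −log10 q of at least 5 left 65740 regions and merging within 500 bp 69552. The share with 2 or more summits became 2.84% and 4.72% under these, and median spacing 15.8 and 15.4 kb, or 14.1 kb over every summit row. The share at starts was 9.28% with a 2.5 kb window, 6.92% over all RefSeq genes and 5.08% at the stricter threshold. At far ends it was 6.10% with the 2.5 kb window and 3.65% over all genes, and inside genes 57.8% over all genes. With −log10 q as strength, the ratio of medians of regions with several summits to regions with 1 was 2.01 (1.37 by fold). The end deciles became nearly equal, with 9.09% of the strongest and 8.90% of the weakest at starts. By that measure 2 of the 12 strongest regions by fold stayed among the first 12. At the stricter threshold the weakest decile had 8.50% at starts. A region was counted at 54.5% of protein-coding genes with the body alone, 91.5% with 50 kb flanks and 77.0% at the stricter threshold. Windows with a summit held the shorter motif in 35.2% of cases, and those overlapped anywhere by a region held the full one in 10.3%; the ratios to windows without were 4.99 and 6.45, against 8.64. The wider windows, added genes and shorter letters change these shares by their construction; for the ranking by −log10 q the cause was not tested. With no replicates, the stability of weak regions, down to a pileup of 7, is unknown, and fold at the lowest background carries mainly the error of the pileup.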

Other observations

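The region with 7 summits near Trappc6b (chr12:59034823-59039256, 4434 bp) carried 7 summits of similar strength at similar steps. In order along the chromosome their folds were 17.7, 21.2, 22.8, 15.0, 19.7, 25.04 and 21.5, and their pileups ranged from 97 to 117 fragments. The steps between them were 491, 493, 524, 469, 605 and 408 bp. No other region had more than 4 summits.

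The motif letters in promoters with a summit differed from those elsewhere in 2 ways, both looked at after the motif shares were known. In 161 of 245 regions (65.7%, 59.6 to 71.4) the letters read forward on the gene's own strand, against 274 of 531 matches in windows without a summit (51.6%, 47.4 to 55.8). The free bases of the motif differed as well. At the first free base C was present in 44.1% and G in 46.1% of matches with a summit, against 17.7% and 56.5% without. At the third free base A or G made up nearly all matches with a summit (40.8% and 53.1%), against 31.1% and 29.0%, and at the fourth G made up 62.9% against 32.0%. Matches were not independent where windows of a gene overlap.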
